A study of Mus musculus with 2 samples.

Results

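The cytosolic ribosomal protein genes were examined in ATAC-seq data of mouse liver. Regions of open chromatin were assigned by the authors to the closest transcription start site (TSS). Members were the genes with a symbol starting in Rpl or Rps and a digit, without the S6 kinases (Rps6k) and the pseudogenes named -ps, and with *Rplp0*, *Rplp1*, *Rplp2* and *Rpsa*. The table named 27433 genes, of which 74 were members. They held 118 of the 69549 distinct regions. A promoter region, one whose centre lay within 1 kb of the TSS, was present for 71 of the 74 members and for 13163 of all genes. Where a gene had more than 1 such region, the one with the highest summed signal was used.

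Each ribosome has a small subunit, which decodes the mRNA, and a large subunit, which joins the amino acids. Most of their proteins are made in equal numbers, are built onto ribosomal RNA in the nucleolus, and are encoded by housekeeping genes that are active in every cell. The mRNAs of these genes begin with a stretch of pyrimidines, the 5′ terminal oligopyrimidine (TOP) tract, through which mTORC1 and LARP1 control their translation. In hepatocytes, which secrete most plasma proteins, ribosomes are abundant.

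Nuclei were taken from the livers of C57BL/6 mice at 8 weeks of age on normal chow. One group was *Mettl3* flox/flox. The other was *Mettl3*-HKO, with the genotype *Mettl3* flox/flox Alb-Cre+/-, in which the albumin promoter drives Cre and the floxed gene is deleted in hepatocytes. *Mettl3* encodes the catalytic subunit of the methyltransferase that makes N6-methyladenosine in mRNA. Both groups carried the floxed alleles, and Cre is given for the *Mettl3*-HKO mice alone, without a Cre-only control in this comparison. Livers of several mice were pooled into 1 library per group, so there was no replicate error and no test across mice, and every difference given here is between 2 libraries. They are called the control library (flox/flox) and the HKO library.

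The authors scaled the counts to totals of 52826202 (control) and 58038305 (HKO). Of these, 31.7% and 22.3% lay in regions, so ratios on the authors' scale were below 0 for most regions (median log2 ratio −0.38). All 8 hepatocyte markers had a promoter region, with a summed signal of 69.3 RPM (counts scaled to the library total) in the control library and 46.7 RPM in the HKO library. None of the 4 Kupffer cell markers and none of the 4 lymphocyte markers had one. All 4 endothelial markers had one, with a summed signal of 1.27 RPM and 4.12 RPM. Each was at least 2-fold higher in the HKO library, compared with 3.84% of all promoters. They were faint in the control library, at 11 to 25 counts. Regions this faint may have been included through the library in which they are high, so these ratios are no evidence of a rise. Of the stellate markers 2 of 4 had a promoter region, with 13.8 RPM and 3.05 RPM. Most of it came from *Reln*, while *Col1a1* was not lower (37 and 43 counts). Of the cholangiocyte markers 2 of 4 had one, with 10.8 RPM and 7.77 RPM. There *Sox9* was lower (520 and 397 counts) and *Epcam* was not (47 and 52 counts). The part of such differences in the ribosomal protein results was not tested. The region at the start of *Mettl3* had 566 and 392 counts, and open chromatin at a promoter does not check the deletion.

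The promoters of the ribosomal protein genes were open in both libraries. A peak was called in both libraries at 69 of the 71 promoter regions, and in 87.1% of all promoters. Per length, on the scale of fold enrichment over the genome, the median member was at 35.0-fold in the control library and at 24.0-fold in the HKO library, against 26.8-fold and 17.3-fold for all promoters. In the control library 50 of 71 members were above the median of all promoters, and in the HKO library 53 were. In both libraries, then, most members were more open than the median promoter. The upper 10% of all promoters by fold enrichment held 9 of the 71 members in the control library and 13 in the HKO library.

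The regions were also long and lay over the start site. Their median length was 976 bp, compared with 808 bp for all promoters, and 65 of 71 covered the TSS, compared with 83.2% of all promoters. The median edges were at −430 bp and 498 bp relative to the TSS. By the authors' annotation the region's centre lay in the first intron of the gene in 18 members, in its 5′ UTR in 11, in its first exon in 10 and in its last exon in 2. For the others it was annotated as intergenic (27) or lay outside the gene (3). The centre was within 300 bp of the TSS in 62 members and more than 500 bp away in 4, *Rpl10*, *Rpl10a*, *Rpl11* and *Rpl35*. The centre farthest inside the limit of 1 kb was that of *Rpl10*, 881 bp upstream, and the nearest region outside the limit was a second region of *Rpl35*, at 1.055 kb.

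**Figure D1:**
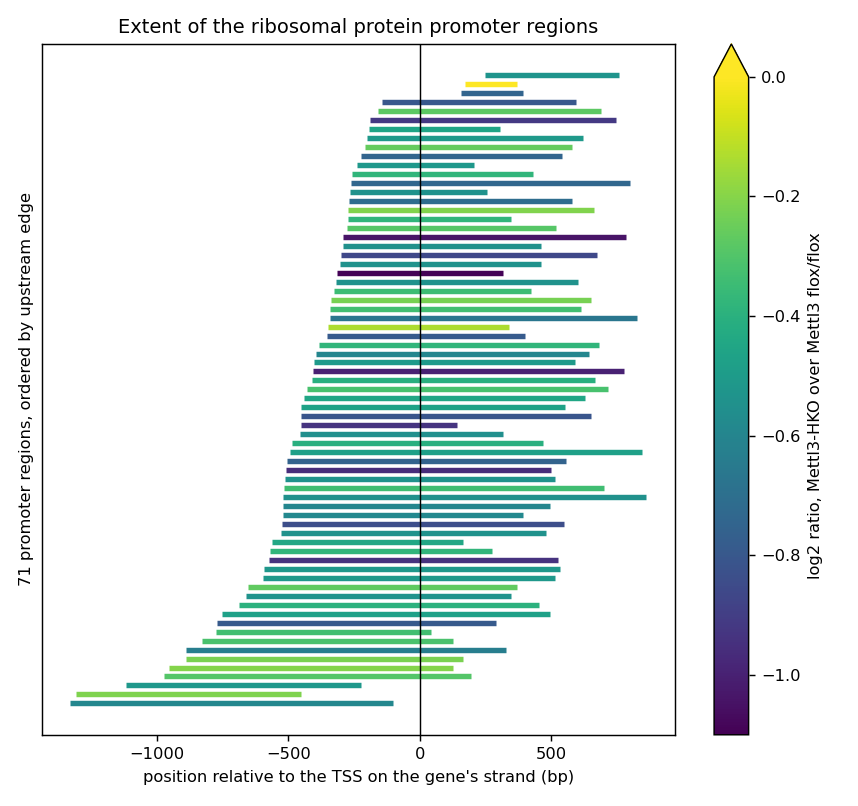
Each line spans the promoter region of 1 of 71 ribosomal protein genes, with the position relative to the TSS in bp on the x axis (negative values are upstream) and the log2 ratio of the HKO over the control library as colour (values above 0 share the last colour). Of the 71 regions, 65 cross the TSS, and the ratio had little relation to length (Spearman's rho −0.10, n = 71).

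Sequences are shown for the 5 strongest members by summed RPM, and for the 3 lowest ratios (beside *Rps23*, which is lower still) and the 3 highest among genes of the ribosome proper whose RefSeq start lay within 200 bp of the authors' TSS. They were taken from RefSeq (GRCm38.p6), which held promoter sequences for 56 of the 71 members, and run from 120 bases before to 30 bases after the annotated start. Capitals mark CCGGAAG (the core of ETS sites, which GABP binds), AAGATGG (YY1) and CTCGCGAG on either strand, and runs of at least 8 pyrimidines from 30 bases before the start onward, where marks may overlap. The 5 strongest were:
*Rps23*, chr13:90923002-90923151, plus strand: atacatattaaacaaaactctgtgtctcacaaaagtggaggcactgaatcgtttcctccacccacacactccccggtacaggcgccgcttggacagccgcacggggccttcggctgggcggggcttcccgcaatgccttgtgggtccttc
*Rps19*, chr7:24884556-24884705, plus strand: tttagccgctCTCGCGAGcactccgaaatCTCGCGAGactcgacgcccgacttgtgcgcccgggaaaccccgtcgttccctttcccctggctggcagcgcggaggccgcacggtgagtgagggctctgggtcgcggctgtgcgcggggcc
*Rpl22l1*, chr3:28805388-28805537, plus strand: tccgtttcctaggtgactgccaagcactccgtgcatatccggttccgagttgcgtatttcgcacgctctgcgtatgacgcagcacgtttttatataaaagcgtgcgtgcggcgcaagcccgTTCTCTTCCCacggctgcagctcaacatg
*Rpl34*, chr3:130730308-130730457, minus strand: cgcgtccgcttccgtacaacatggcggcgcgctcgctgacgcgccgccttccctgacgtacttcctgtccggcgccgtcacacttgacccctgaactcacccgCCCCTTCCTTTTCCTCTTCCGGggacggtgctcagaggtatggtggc
*Rpl27a*, chr7:109519075-109519224, plus strand: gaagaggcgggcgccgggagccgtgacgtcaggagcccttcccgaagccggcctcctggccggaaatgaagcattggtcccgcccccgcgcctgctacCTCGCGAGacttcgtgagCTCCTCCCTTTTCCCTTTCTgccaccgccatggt
The runs in *Rpl27a* and *Rpl34* were 20 bases long, *Rps19* held CTCGCGAG in 2 places, and *Rps23*, the strongest, held none of the marks in this stretch and a pyrimidine run beyond it.

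Of the genes not already shown, the 3 lowest ratios came from *Rpl22*, *Rps12* and *Rps3a1*. Within the limits set for marks, *Rps12* held a pyrimidine run, *Rps3a1* an ETS core and *Rpl22* neither. A pyrimidine run of *Rpl22* that crosses the upstream limit for runs is left unmarked in the sequences:
*Rpl22*, chr4:152325606-152325755, plus strand: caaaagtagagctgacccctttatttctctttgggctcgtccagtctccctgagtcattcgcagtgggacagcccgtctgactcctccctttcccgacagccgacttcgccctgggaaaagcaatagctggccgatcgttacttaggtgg
*Rps12*, chr10:23787180-23787329, minus strand: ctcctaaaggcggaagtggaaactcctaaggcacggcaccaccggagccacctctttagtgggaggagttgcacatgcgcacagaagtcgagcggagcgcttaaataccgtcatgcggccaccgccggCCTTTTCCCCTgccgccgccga
*Rps3a1*, chr3:86142639-86142788, minus strand: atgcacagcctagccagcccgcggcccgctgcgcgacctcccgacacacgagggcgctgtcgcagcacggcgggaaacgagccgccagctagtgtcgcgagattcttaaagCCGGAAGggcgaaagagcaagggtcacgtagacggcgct
The 3 highest came from *Rpl41*, *Rpl13a* and *Rpl31*, of which *Rpl41* and *Rpl31* held an ETS core, and *Rpl13a* and *Rpl31* a pyrimidine run, while that of *Rpl41* lay beyond the stretch shown:
*Rpl41*, chr10:128549139-128549288, minus strand: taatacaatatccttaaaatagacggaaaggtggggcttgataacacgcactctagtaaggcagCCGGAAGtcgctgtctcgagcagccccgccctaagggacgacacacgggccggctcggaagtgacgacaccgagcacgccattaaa
*Rpl13a*, chr7:45128716-45128865, minus strand: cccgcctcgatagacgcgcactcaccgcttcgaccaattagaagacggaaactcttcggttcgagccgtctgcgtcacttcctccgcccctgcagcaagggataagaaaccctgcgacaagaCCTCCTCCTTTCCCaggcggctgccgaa
*Rpl31*, chr1:39367731-39367880, plus strand: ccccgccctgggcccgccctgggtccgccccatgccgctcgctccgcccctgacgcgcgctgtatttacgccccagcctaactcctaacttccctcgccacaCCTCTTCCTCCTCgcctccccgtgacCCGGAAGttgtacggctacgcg

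Over the whole 300-base RefSeq promoters, the members differed from other promoters in some motifs and not in others. CCGGAAG on either strand was present in 22 of 56 members (39.3%), in 17.5% of the 8146 other promoters with a region, and in 8.86% of all 32851 entries. AAGATGG was present in 12.5%, 6.84% and 6.34% of them. CTCGCGAG, which was added after the sequences had been seen, was present in 7 members (12.5%), in 1.87% of the other promoters with a region and in 0.919% of all entries. These 7 were *Rpl10a*, *Rpl12*, *Rpl26*, *Rpl27a*, *Rps6*, *Rps19* and *Rps28*. GGGCGG, the core of SP1 sites, was as frequent in members (66.1%) as in the other promoters with a region (66.6%). TATAAA in the 50 bases before the start was found in 1 member, *Rpl22l1*, and in 1.51% of the other promoters with a region.

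Over the 56 members the pyrimidine feature was the most frequent. A run of at least 8 pyrimidines on the gene's strand, between 30 bases before and 50 bases after the annotated start, occurred in 41 of 56 members (73.2%), compared with 24.7% of the other promoters with a region and 29.0% of all entries. This measure was also chosen after the sequences had been seen. A TOP-like start in the strict sense, a C at the annotated start followed by at least 4 pyrimidines, was present in 11 members (19.6%), compared with 1.93% and 2.51%. The strict form is read at the RefSeq start alone, so it misses a tract a few bases away from it. The run measure likewise misses a run that crosses or lies upstream of its window, as in *Rpl22* and *Rps19*. The RefSeq start was at a median of 33 bp from the authors' TSS, but for 13 of the 56 members it was 141 to 2614 bp away, and their 300 bases may lie partly or wholly outside the open region. Among the 43 members within 100 bp, CCGGAAG was present in 17 (39.5%, and 18.1% of the 6812 other promoters within that distance), CTCGCGAG in 6 (14.0% and 1.97%), a TOP-like start in 8 (18.6% and 1.92%) and a pyrimidine run in 30 (69.8% and 23.6%). In these 43 members GGGCGG was as frequent as the run, also present in 30 (69.8% and 67.4%). The GC content of members (median 58.2%, from 44.3% to 67.3%) was below that of the other promoters with a region (61.3%).

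**Figure D2:**
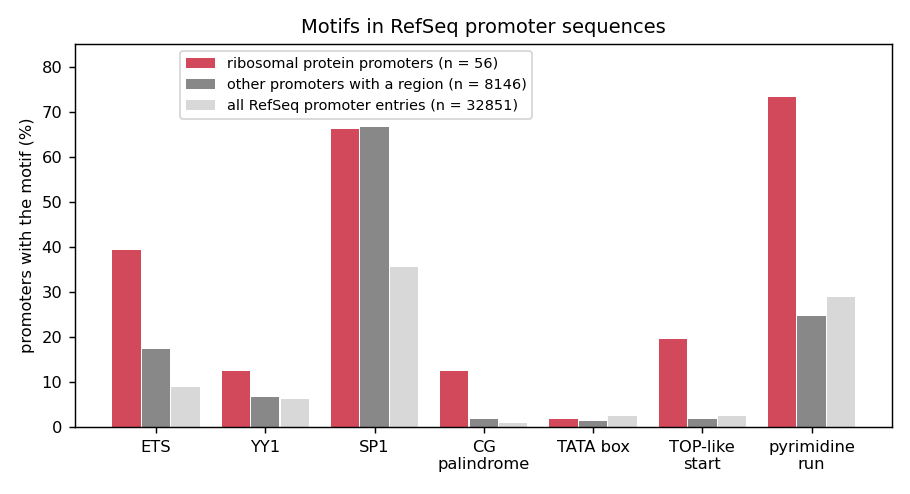
Bars give the percentage of promoters that hold each motif (y axis) in 56 ribosomal protein promoters, 8146 other promoters with a region and all 32851 RefSeq promoter entries. The share is higher in members for the ETS core (39.3% against 17.5%), the CG palindrome CTCGCGAG (12.5% against 1.87%) and the pyrimidine run (73.2% against 24.7%), and alike for SP1 (66.1% against 66.6%).

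Whether accessibility of these promoters differed between the genotypes was asked next. On the authors' scale the signal was lower in the HKO library at 70 of 71 members, but at 38 when libraries were scaled to their reads in regions and at 19 when ratios were centred on the strongest 10% of promoters. The median log2 ratio on the authors' scale was −0.51 (quartiles −0.69 and −0.36), or 1.43-fold lower. The median RPM was 11.5 in the control library and 7.77 in the HKO library. Across all 13163 promoters 85.1% were below 0, with a median of −0.57 (quartiles −0.85 and −0.27). With whole liver, less accessible chromatin per cell and fewer cells with that chromatin cannot be told apart. The 95% Clopper-Pearson interval, which covers counting error only, lay below 0 in 68 of 71 members (95.8%), compared with 74.3% of all promoters, and above 0 in 1 member, compared with 7.62%.

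At least 2-fold lower were 3 of 71 members (4.23%), compared with 15.9% of all promoters, and at least 2-fold higher was 1 member, *Rpl10l*, compared with 3.84%. The share of members past 2-fold was thus below the background in the lower direction. The direction depended on the scaling. When libraries were scaled to their reads in regions, the median of members was −0.0032, and when ratios were centred on the strongest 10% of promoters, it was 0.14. In neither case was a member at least 2-fold lower, compared with 2.9% and 1.79% of all promoters, and with ratios centred on all regions the count was also 0, compared with 4.61%. At a limit of 1.5-fold on the authors' scale 24 of 71 members were lower, compared with 48.2% of all promoters. The authors' scale is used in what follows, and values relative to promoters of the same signal, given next, are the same on each of these scales.

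The ratio of all promoters fell with their signal, so each member was compared with the 1000 other promoters nearest to it in summed RPM. The median of those promoters was −0.64 for the median member, and 52 members were above their own such median while 19 were below, with a median difference of 0.13. The signal of ribosomal protein promoters was thus reduced a little less than that of promoters of like strength. They also lay closer together. Between 8.29 and 50.6 summed RPM, the 5th to 95th percentile of the members, which took in 63 of them and left out, among others, *Rps23*, *Rps19bp1* and *Rpl10l*, the difference from the local median had an interquartile range of 0.27 among members and of 0.45 among the 7484 other promoters. Within 0.5 of the local median were 98.4% of these members and 84.1% of the others. At least 2-fold lower were 1 of the 63 members (1.59%) and 1234 of the 7484 others (16.5%), while over the full set, with *Rps23* and *Rps19bp1*, it was the 4.23% given above.

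**Figure D3:**
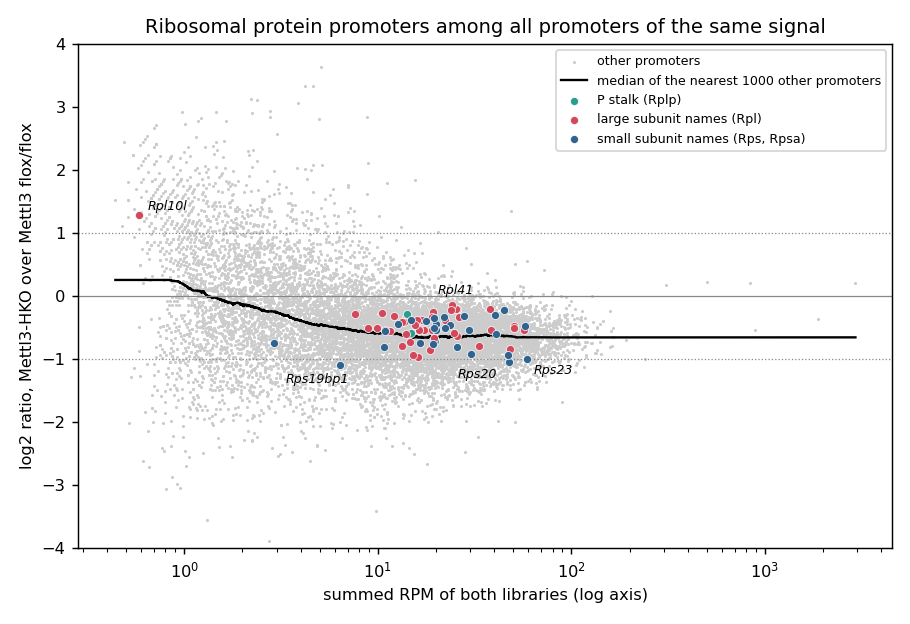
The log2 ratio of the HKO over the control library (y axis) is plotted against the summed RPM of both libraries (log x axis) for 71 ribosomal protein promoters (coloured) and all other promoters (grey, 1 of them beyond the plotted range), with the median of the nearest 1000 other promoters as a black line and dotted lines at 2-fold. Of the 71 members 52 lie above the line, and 3 lie at or below the lower dotted line.

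**Figure D4:**
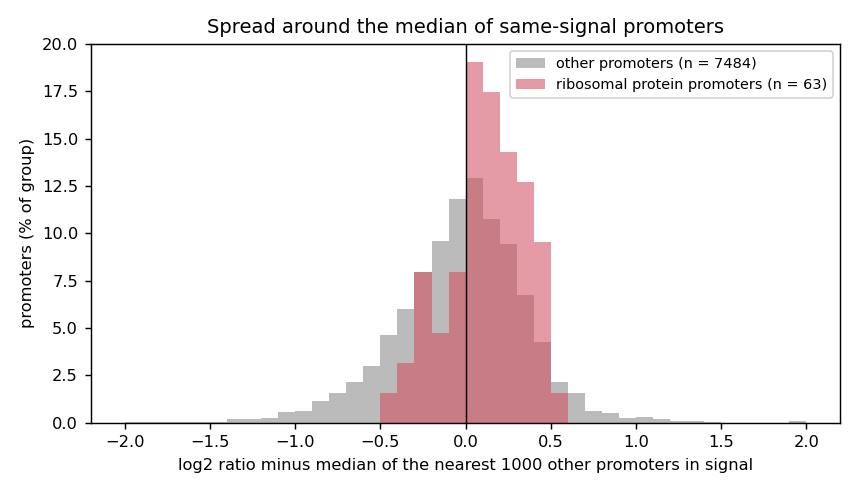
Histograms give the percentage of promoters (y axis) by the difference between their log2 ratio and the median of the nearest 1000 other promoters in signal (x axis, values beyond 2 placed in the end bins) for 63 ribosomal protein promoters and 7484 other promoters between 8.29 and 50.6 summed RPM. The members form a narrower distribution, with an interquartile range of 0.27 against 0.45, centred at 0.13.

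Across members the ratio had little relation to signal (Spearman's rho −0.04, n = 71), whereas across all promoters rho was −0.29. The signal of the members in one library followed that in the other (rho 0.96), with library and depth shared by all points. The order of the members by openness was therefore largely alike in both libraries. The strongest members and those with the highest and lowest ratios are among those named in the following.

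**Figure D5:**
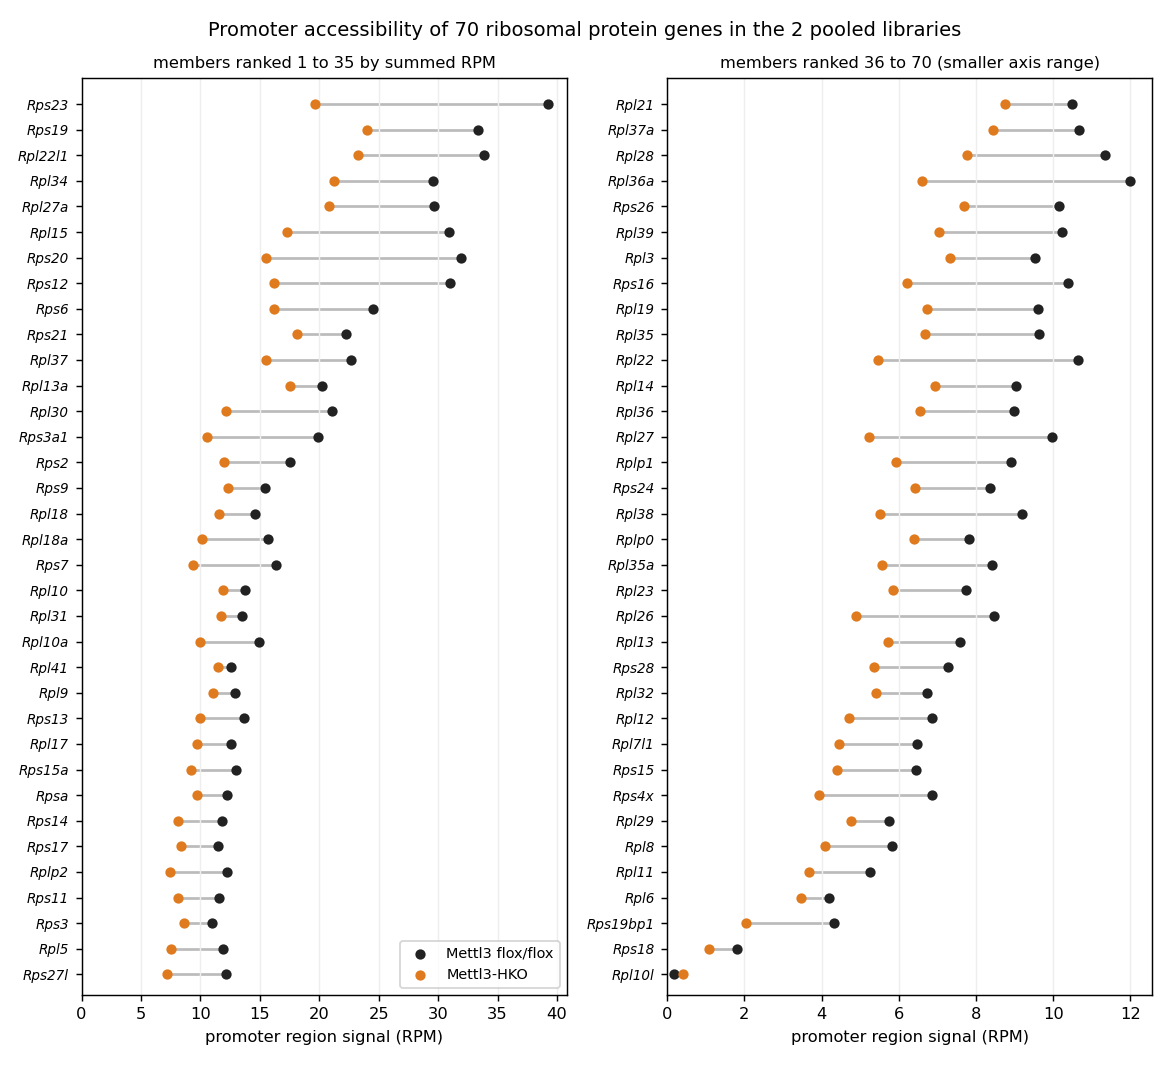
Points give the RPM (x axis) of the promoter region of 70 of the 71 ribosomal protein genes in the control library (black) and the HKO library (orange), ordered by summed RPM, with a smaller axis range on the right. On this scale, the authors' own, the orange point is the lower one in 69 members, and *Rpl10l* is the exception.

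The 5 members with the highest summed RPM were *Rps23*, *Rps19*, *Rpl22l1*, *Rpl34* and *Rpl27a*. *Rps23*, whose protein lies in the decoding centre of the small subunit, had 2071 counts in the control library and 1137 in the HKO library, or 39.2 and 19.6 RPM, which is a log2 ratio of −1.00 (95% interval −1.11 to −0.90). Its region lies on chromosome 13 from 90922552 to 90923735, with the centre in the 5′ UTR. The ratio was at the 2-fold limit and below that of like promoters (−0.65). *Rps19*, which is mutated in Diamond-Blackfan anaemia and is needed to mature the small subunit's RNA, had 1762 and 1393 counts, or 33.4 and 24.0 RPM, which is a log2 ratio of −0.47 (95% interval −0.58 to −0.37). It was the member with the highest RPM in the HKO library.

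*Rpl22l1*, a paralog of *Rpl22*, had 1786 and 1348 counts, a log2 ratio of −0.54, and was the most enriched member per length, at 100-fold and 68.7-fold over the genome. *Rpl34* had 1559 and 1230 counts, a log2 ratio of −0.48. *Rpl27a* had 1565 and 1205 counts, a log2 ratio of −0.51. All 4 after *Rps23* were within 0.18 of the median of like promoters and above it.

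The P stalk recruits the translation factors with GTPase activity to the large subunit, and its proteins are encoded by *Rplp0*, *Rplp1* and *Rplp2*. *Rplp0*, the base of the stalk, had 412 counts in the control library and 370 in the HKO library, or 7.82 and 6.39 RPM, which is a log2 ratio of −0.29 (95% interval −0.50 to −0.085). *Rplp1* had 469 and 343 counts, with a log2 ratio of −0.59 (95% interval −0.79 to −0.38). *Rplp2* had 645 and 433 counts, with a log2 ratio of −0.71 (95% interval −0.89 to −0.53). On the authors' scale all 3 were lower in the HKO library. The intervals of *Rplp0* and *Rplp2*, which cover counting error only, did not overlap.

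The other 41 genes named Rpl had a median log2 ratio of −0.51 (quartiles −0.59 and −0.33), with 1 above 0. Roles outside the ribosome are known for *Rpl5* and *Rpl11*, whose proteins, together with 5S ribosomal RNA, bind MDM2 and raise p53 when ribosome assembly fails. *Rpl5* had 629 and 435 counts, with a log2 ratio of −0.67 (95% interval −0.85 to −0.49). *Rpl11* had 276 and 212 counts, with a log2 ratio of −0.51 (95% interval −0.78 to −0.25). Both were lower in the HKO library, and both were within 0.061 of the median of like promoters.

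The highest ratios of the large subunit belonged to *Rpl10l*, *Rpl41*, *Rpl13a*, *Rpl31* and *Rpl10*, which were also the highest of all members. *Rpl10l*, a retrogene of *Rpl10* that serves in the testis, had 8 counts in the control library and 23 in the HKO library, or 0.170 and 0.414 RPM, which is a log2 ratio of 1.28 (95% interval 0.18 to 2.76). It was the faintest of the 71 regions and the sole one that was higher. A peak was called there in the HKO library alone, so the region entered the table through the library in which it is high, and its ratio and interval are no evidence of a rise. *Rpl41*, which encodes the smallest ribosomal protein, had 665 counts in each library, or 12.6 and 11.5 RPM, which is a log2 ratio of −0.14 (95% interval −0.29 to 0.021). Its interval spanned 0, as did that of *Rpl6* (221 and 200 counts, log2 ratio −0.28). *Rpl13a*, whose protein also takes part in the silencing of inflammatory mRNAs as part of the GAIT complex, had 1067 and 1018 counts, with a log2 ratio of −0.20 (95% interval −0.33 to −0.078).

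*Rpl31* had 714 and 679 counts, a log2 ratio of −0.21, and *Rpl10*, whose protein is among the last to join the large subunit, had 727 and 689 counts, a log2 ratio of −0.21. For *Rpl41*, *Rpl13a*, *Rpl31* and *Rpl10* the ratio was 0.42 to 0.51 above the median of like promoters. The lowest ratios of the large subunit were those of *Rpl22* (561 and 316 counts, log2 ratio −0.96) and *Rpl27* (526 and 302 counts, log2 ratio −0.93), both below like promoters. *Rpl10* and *Rpl36* were the members with more than 1 promoter region. The second region of *Rpl10* had 150 and 133 counts, a log2 ratio of −0.31 with an interval that spanned 0 (−0.66 to 0.04), and that of *Rpl36* had 467 and 323 counts, a log2 ratio of −0.67.

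The 27 genes named Rps, with *Rpsa*, had a median log2 ratio of −0.54 (quartiles −0.78 and −0.42), all below 0. The lowest ratios of all members were *Rps19bp1*, *Rps20*, *Rps23*, *Rpl22* and *Rps12*, most of them of this subunit by name. *Rps19bp1* encodes a protein that binds RPS19 and is no part of the ribosome, and its name alone meets the rule. It had 228 and 117 counts, or 4.33 and 2.03 RPM, which is a log2 ratio of −1.09 (95% interval −1.43 to −0.77). *Rps20*, whose protein sits in the head of the small subunit, had 1685 and 899 counts, or 31.9 and 15.5 RPM, which is a log2 ratio of −1.04 (95% interval −1.16 to −0.92). *Rps12* had 1638 and 939 counts, with a log2 ratio of −0.94 (95% interval −1.06 to −0.82). In *Rps20*, *Rps23* and *Rps12*, 3 of the 8 members with the highest summed RPM, the ratio was 0.30 to 0.40 below that of like promoters.

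*Rps6*, the protein of which is phosphorylated by the S6 kinases after mTORC1 is activated, had 1293 and 939 counts, with a log2 ratio of −0.60 (95% interval −0.72 to −0.47). *Rps3*, whose protein lies at the mRNA entry channel and also acts in DNA repair, had 577 and 498 counts, with a log2 ratio of −0.35 (95% interval −0.52 to −0.17). *Rpsa*, which also encodes the laminin receptor, had 644 and 562 counts, with a log2 ratio of −0.33 (95% interval −0.50 to −0.17). *Rps6* lay near like promoters (0.024 above), and *Rps3* and *Rpsa* lay 0.32 and 0.31 above them.

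Several ribosomal proteins have a paralog. *Rpl7l1* had 341 and 258 counts (log2 ratio −0.54), *Rps27l*, a p53 target, had 641 and 417 (−0.75), and *Rpl22l1* and *Rpl10l* are given above. *Rpl22l1* was more open than *Rpl22* in both libraries (fold enrichment 100 and 68.7 against 28.8 and 14.8). Its ratio was higher, with intervals for counting error alone that did not overlap. *Rpl3* had 503 and 425 counts (−0.38), *Rpl36a* had 632 and 382 (−0.86), *Rpl39* had 540 and 408 (−0.54) and *Rps4x* had 361 and 227 (−0.80). *Rpl7*, whose region was assigned to *Rdh10*, had 3069 and 2009 (−0.75), and *Rpl36al*, assigned to *Mgat2*, had 1160 and 1088 (−0.23). *Rpl39l*, a paralog of *Rpl39* that is active in the testis, had no promoter region, and *Rpl3l* had no region over its gene. Reads that map equally well to near-identical copies may be lost or divided, so the values of *Rpl10l* and of the short region of *Rps18* (95 and 62 counts over 236 bp) are uncertain.

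The ratios were also grouped by place in the genome. Chromosome 7 held the most members, 14, with log2 ratios from −0.74 to −0.20 and a median of −0.47. Of the chromosomes with at least 5 members, chromosome 5 had the highest median (−0.28, n = 5) and chromosome 11 the lowest (−0.74, n = 5). For 9 members a start of another gene on the opposite strand lay within 1 kb upstream, and their median was −0.54, compared with −0.51 in the other 62. Members with and without the ETS core had medians of −0.54 and −0.51, those with and without CTCGCGAG −0.55 and −0.53, and those with and without a pyrimidine run −0.54 and −0.47. These differences were not tested.

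The closest-TSS rule left out part of the ribosome. Of 80 genes for the proteins of the cytosolic ribosome in the mouse, including *Fau* and *Rack1*, 66 had a promoter region under the rule. For the other 14, regions were looked up by RefSeq gene position, a step added after the data had been seen. In 7 of them the region was assigned to another named gene with its start nearer to the region's centre, in 5 to a TSS without a symbol, and in 2, among them *Rack1*, to the gene itself, whose name does not meet the rule. *Rpl24* was a member without a promoter region for this reason, and the region over it had 753 and 585 counts (log2 ratio −0.50). All 14 were lower in the HKO library (−1.25 to −0.24).

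The lowest was *Rps27a*, which encodes ubiquitin fused to a ribosomal protein and whose region was assigned to *Clhc1*. It had 1828 and 844 counts, or 34.6 and 14.6 RPM, which is a log2 ratio of −1.25 (95% interval −1.37 to −1.13). *Fau*, a fusion of a ubiquitin-like protein and RPS30, had 588 and 417 counts (−0.63), and *Rack1*, a scaffold on the small subunit, had 825 and 509 (−0.83). Over the 80 genes the median on the authors' scale was −0.51, all were below 0 (85.1% of all promoters), and 3 were at least 2-fold lower (15.9% of all promoters), *Rps20*, *Rps23* and *Rps27a*. This direction depends on the scaling as it does for the members.

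Outside promoters, 45 regions lay closest to 26 members, from 1.055 to 118.5 kb from the TSS. They were weaker than the promoters, with a median of 2.04 RPM in the control library and 1.60 RPM in the HKO library. Of the 45 regions, 25 overlapped no gene, 18 lay in another gene and 2 in the member itself, so that closeness to a ribosomal protein TSS was in most cases all that tied them to the member. Their median log2 ratio was −0.57, compared with −0.27 for all 55162 regions outside promoters. At least 2-fold lower were 7 (15.6%), compared with 18.8% of all such regions, and at least 2-fold higher were 4 (8.89%), compared with 15.6%.

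The largest ratio was at a region 118.5 kb from *Rps23*, in an intron of *Atg10*, an autophagy gene, on chromosome 13 from 91041265 to 91041653. It had 9 counts in the control library and 97 in the HKO library, with a peak in the latter only, a log2 ratio of 3.16 (95% interval 2.31 to 4.47). The region 19.7 kb from *Rpl9* lay in the first intron of *Klb*, which encodes the FGF21 and FGF19 co-receptor beta-Klotho of hepatocytes, and had 54 and 174 counts, a log2 ratio of 1.53. *Rpl39l*, without a promoter region, had a single region at 40.9 kb with 9 and 48 counts and a peak in the HKO library alone, a log2 ratio of 2.16. The other direction was seen near *Rpl37a*, where a region at 48.6 kb had 51 and 9 counts and a peak in the control library alone, a log2 ratio of −2.51. Regions with a peak in 1 library entered the table through the library in which they are high, so the size and direction of their ratios are given as a description. *Rps27rt*, also without a promoter region, had 1 region at 4.05 kb with 42 and 92 counts, a log2 ratio of 0.98. The promoters of *Rps23* and *Rpl9*, with log2 ratios of −1.00 and −0.22, had the opposite direction to the regions at 118.5 kb and 19.7 kb. Nearer regions of *Rps23*, at 7.09 kb and 40.1 kb, had the direction of its promoter. The first had 75 and 40 counts (log2 ratio −1.03) and the second 58 and 30 (−1.06), both with a peak in the control library alone. At *Rpl37a* the promoter had a log2 ratio of −0.34, and the other 4 regions outside it had ratios of −1.50, −1.16, −0.98 and −0.53. Those at −1.50 and −0.53 also had a peak in the control library alone, and the interval of the last, with 37 and 28 counts, spanned 0 (−1.30 to 0.21). A further 16 regions were closest to 4 pseudogenes named -ps, none of them within 1 kb of the TSS.

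Other genes of ribosome production were described by fixed lists, and their counts stand beside the shares over all promoters, of which 85.1% were below 0 and 15.9% at least 2-fold lower. Of 30 ribosome assembly genes, 22 had a promoter region, all below 0, with a median log2 ratio of −0.62. At least 2-fold lower were 3 of the 22, near the share over all promoters. These were *Efl1*, which releases eIF6 from the new large subunit (1276 and 537 counts, −1.38), *Npm1*, the nucleolar protein nucleophosmin (2045 and 985 counts, −1.19) and *Wdr12* (1055 and 515 counts, −1.17). *Ncl*, which encodes nucleolin, had 1439 and 1444 counts and the highest ratio of the list, −0.13. None was at least 2-fold higher.

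Of 12 genes of RNA polymerase I and its factors, 10 had a promoter region, with a median of −0.60. At least 2-fold lower were 2 of the 10 (15.9% over all promoters), *Taf1c* (612 and 303 counts, −1.15) and *Taf1a* (418 and 229 counts, −1.00), subunits of the selectivity factor SL1 that brings the polymerase to ribosomal DNA. *Ubtf*, the upstream binding factor, had 371 and 290 counts (−0.49). Of 16 other TOP mRNA genes, 15 had a promoter region, with a median of −0.58, and *Npm1* alone was at least 2-fold lower. Among them *Eef1a1*, the main elongation factor, had 2190 and 1766 counts (−0.45) and *Eef2* had 1094 and 803 (−0.58).

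All 12 genes in the list of mTORC1 and S6 kinase regulators, which also holds *Myc*, had a promoter region. Their median was −0.49, with none past 2-fold. *Larp1*, the TOP mRNA binding protein, had 1329 and 828 counts (−0.82), *Mtor* had 689 and 569 (−0.41) and *Rps6kb1*, the S6 kinase gene, had 604 and 443 (−0.58). Of 4 factors known for ribosomal protein promoters 3 had a promoter region, *Gabpa*, the ETS subunit of GABP (3302 and 2172 counts, −0.74), *Sp1* (2390 and 1916 counts, −0.45) and *Zbtb33* (453 and 281 counts, −0.82). Relative to promoters of the same signal the medians of these 5 lists ran from −0.08 for the promoter factors to 0.13 for the mTORC1 regulators, the latter as high as in the ribosomal proteins.

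The 60 mitochondrial ribosomal protein genes with a promoter region served as the most similar group. Their products build the ribosome of the mitochondrion. They had a median log2 ratio of −0.62 (quartiles −0.90 and −0.40), and 10 of the 60 were at least 2-fold lower, near the share of 15.9% over all promoters. Per length they were less open than the cytosolic group, with medians of 25.4-fold and 16.8-fold enrichment over the genome. Relative to promoters of the same signal they differed by −0.02, compared with 0.13 for the cytosolic group. With 1 library per group this difference could not be tested.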

How the data were processed

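ATAC-seq was analysed for 1 pooled library of *Mettl3* flox/flox livers and 1 of *Mettl3*-HKO livers. The authors trimmed adaptors with skewer, aligned reads with BWA to GRCm38, filtered out mitochondrial, improperly paired and poorly mapped reads, and ran MACS2 on each library without removing duplicates. The counting on merged regions and any shift of read ends for Tn5 are not given in the sources used here. The authors deposited raw read counts per region, RPM (the count with 1 read added, scaled to the library total) and a fold enrichment, the ratio of read density in a region to that in the genome. They also deposited a log2 ratio of the libraries, which was not used. The BWA and MACS2 names are also in the submitters' processing notes, without versions.

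Repeated rows (5272 of 74821) were left out and starts were converted to count from 1. Log2 ratios (HKO over control) were computed from counts with 1 read added on the authors' totals, recovered from RPM. Intervals (95%, Clopper-Pearson, from the HKO share of a region's counts) cover counting error only, and kept duplicates make counts less independent than they assume. Called means past 2-fold. Signal is the RPM summed over both libraries. The genes named were the 5 strongest, the 5 highest and lowest ratios, all past 2-fold, those without or with more than 1 promoter region, known roles, paralogs, and genes of fixed lists. *Rpl6*, *Rps18* and the regions outside promoters were named after their values had been seen. The members and lists were chosen with earlier results of these data known. Motif counts used RefSeq promoters (GRCm38.p6), with the entry nearest the authors' TSS for each gene. Some genes are not reported or plotted by name here. The scripts were tested on simulated data. The tools were Python 3.11.15 with pandas 2.3.3, numpy 2.4.6, matplotlib 3.10.9 and scipy 1.17.1.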

Additional observations from a re-analysis of the deposited data

How the results depend on the processing

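Scaling was the choice that mattered. The median log2 ratio of −0.51 became −0.14 when centred on all regions, −0.0032 when libraries were scaled to their reads in regions, and 0.14, a reversed direction, when centred on the strongest 10% of promoters, and under each of these 0 members were at least 2-fold lower, compared with 3, while the share of all promoters was 4.61%, 2.9% and 1.79%, compared with 15.9%. The differences follow from the shifts of −0.38, −0.51 and −0.65 that these scalings take away. At a threshold of 1.5-fold 24 members were lower, and 48.2% of all promoters. The single member at least 2-fold higher, *Rpl10l*, was lost (0 members) with 10 reads added, in the upper 50% of signal and without the paralogs. The difference from promoters of the same signal was between 0.12 and 0.14 under the 7 alternatives that could move it, since the 3 scalings shift all promoters alike. The other alternatives for the median (7) kept its direction, among them the 80 genes of the ribosome found by position, which was chosen after seeing the data. No paired analysis was possible because each group is 1 library. At this depth *Rpl10l*, with 8 and 23 counts, is the least certain value, and without replicates no spread between mice is known.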
